A study of Rattus norvegicus with 6 samples.

Results

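The hypoxia and glycolysis genes described here are 6 rat genes, Hif1a, Vegfa, Slc2a1, Hk2, Ldha and Gapdh, out of 19458 genes with a value in the deposited expression table. They were chosen by Ensembl identifier as a small HIF and glycolytic programme of bone marrow stromal cells, and all 6 identifiers were found. The table names genes by identifier alone, so the symbols are those paired with the identifiers when the set was drawn up. They were not checked against a rat annotation.

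The cells were wild-type primary bone marrow mesenchymal stem cells of the rat, stromal cells of the marrow with the potential to form bone, cartilage or fat. They were grown in MEM with 10% fetal bovine serum and antibiotics at 37 degrees Celsius and 5% CO2, and then kept for 6 hours on 1 of 2 surfaces, an array of TiO2 nanotubes of 100 nm or a smooth one. Each surface had 3 RNA-seq libraries made from total RNA, and the comparison asks how the nanotube surface affects early gene expression. Neither the age of the animals, nor the material of the smooth surface, nor the cultures and animals behind each library are stated in the labels. The p-values therefore measure only how these libraries vary, which could be technical variation. Stromal identity was not checked here, because no source used here pairs the marker symbols with the identifiers of the table. In such bulk samples fewer cells of a type and less RNA per cell cannot be told apart.

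HIF-1 is a transcription factor made of an oxygen-labile alpha subunit, encoded by Hif1a, and a stable beta subunit. With enough oxygen the alpha subunit is hydroxylated on prolines and degraded, so the protein is controlled mainly after translation, and the mRNA level of Hif1a is not a measure of HIF-1 activity. When stabilised, HIF-1 binds short DNA elements with the core ACGTG or GCGTG and raises the transcription of genes for blood vessel growth, glucose uptake and glycolysis. In marrow stroma this programme is known for its part in the coupling of bone and vessel formation and in a largely glycolytic metabolism.

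The library totals behind the FPKM, worked out from the deposited values, were between 16299799 and 17624390 reads. Reads in the listed genes made up 99.7% to 99.8% of these totals. The positions of the libraries did not follow the surfaces. Nanotube library 3 had 86 genes apart by 2-fold or more on the log2(FPKM + 1) scale from smooth library 2, but 786 and 613 such genes from nanotube libraries 1 and 2. Smooth library 3 had 109 and 211 such genes from smooth libraries 2 and 1, which differed from each other in 590. The 10 most abundant genes took 8.35% to 13.6% of the reads on nanotubes and 7.97% to 11.4% on smooth. Results are therefore also given without the libraries on which they rest.

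The promoters of the HIF regulator and of Vegfa and Ldha, which were both highest in nanotube library 2, are shown for the presence of the short HIF core. The window is the 250 bases upstream of an annotated RefSeq start in the build GRCr8, matched by symbol. Capitals mark ACGTG or GCGTG on either strand, and overlapping matches (CACGTG reads ACGTG on both strands) count as 1 site.
Hif1a, chr6:98359648-98359897, plus strand: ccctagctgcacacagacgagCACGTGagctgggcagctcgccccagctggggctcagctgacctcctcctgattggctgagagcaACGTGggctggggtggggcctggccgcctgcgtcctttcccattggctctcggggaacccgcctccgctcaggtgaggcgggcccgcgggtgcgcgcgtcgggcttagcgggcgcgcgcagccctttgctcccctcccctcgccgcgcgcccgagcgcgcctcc
Vegfa, chr9:22452604-22452853, plus strand: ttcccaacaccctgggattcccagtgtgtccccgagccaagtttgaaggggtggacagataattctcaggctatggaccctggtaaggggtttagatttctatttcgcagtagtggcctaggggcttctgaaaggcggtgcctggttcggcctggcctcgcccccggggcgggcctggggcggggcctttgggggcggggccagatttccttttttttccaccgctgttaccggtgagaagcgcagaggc
Ldha, chr1:106507842-106508091, plus strand: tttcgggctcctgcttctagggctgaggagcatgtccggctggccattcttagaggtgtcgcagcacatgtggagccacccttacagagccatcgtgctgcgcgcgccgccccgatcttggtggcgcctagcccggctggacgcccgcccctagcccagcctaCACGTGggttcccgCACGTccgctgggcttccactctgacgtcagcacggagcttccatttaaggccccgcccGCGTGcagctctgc
The Hif1a window held 2 sites and the Ldha window 3, the nearest of them 14 bases upstream of the Ldha start. Slc2a1 had 4 sites and Gapdh 3, while Hk2 and both annotated Vegfa windows had 0. Of all 33469 windows of this length, 36.7% held at least 1 match, and their median GC content was 51.2%, against 73.6% for Hif1a, 66.4% for Ldha, 68.4% for Slc2a1, 63.6% for Gapdh, 49.6% for Hk2 and 60.4% for the Vegfa window shown. A match describes the letters alone, and sites outside these 250 bases were not searched for, so 0 matches does not mean that a gene lacks the element.

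The 6 genes spanned a wide range of levels. FPKM, the reads of a gene relative to the length of its model and the total of its library, allows levels of different genes to be set side by side. Averaged over the 6 libraries, Gapdh stood at 1742 FPKM, Ldha at 953, Vegfa at 76.1, Hif1a at 58.9, Slc2a1 at 38.6 and Hk2 at 15.8 FPKM. Gapdh was above Ldha in 6 of 6 libraries, by 1.41-fold to 2.18-fold, and Ldha was above Vegfa by 10.7-fold to 14.9-fold. Vegfa and Hif1a were in that order in 5 of 6 libraries, with a ratio between 0.986 and 1.70, and Hif1a and Slc2a1 likewise in 5 of 6, with a ratio between 0.990 and 1.78. The mean ratios were 1.28 and 1.52, and the differences between these neighbouring levels were not tested. Hk2 was the lowest in every library. Gapdh ranked between 18 and 31 and Ldha between 33 and 74 among the 19458 genes of a library, whereas Hk2 ranked between 4163 and 6301. The gene models implied by the values were 1002 bases for Gapdh and 5432 for Hk2, and true lengths may be whole multiples of these.

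**Figure D1:**
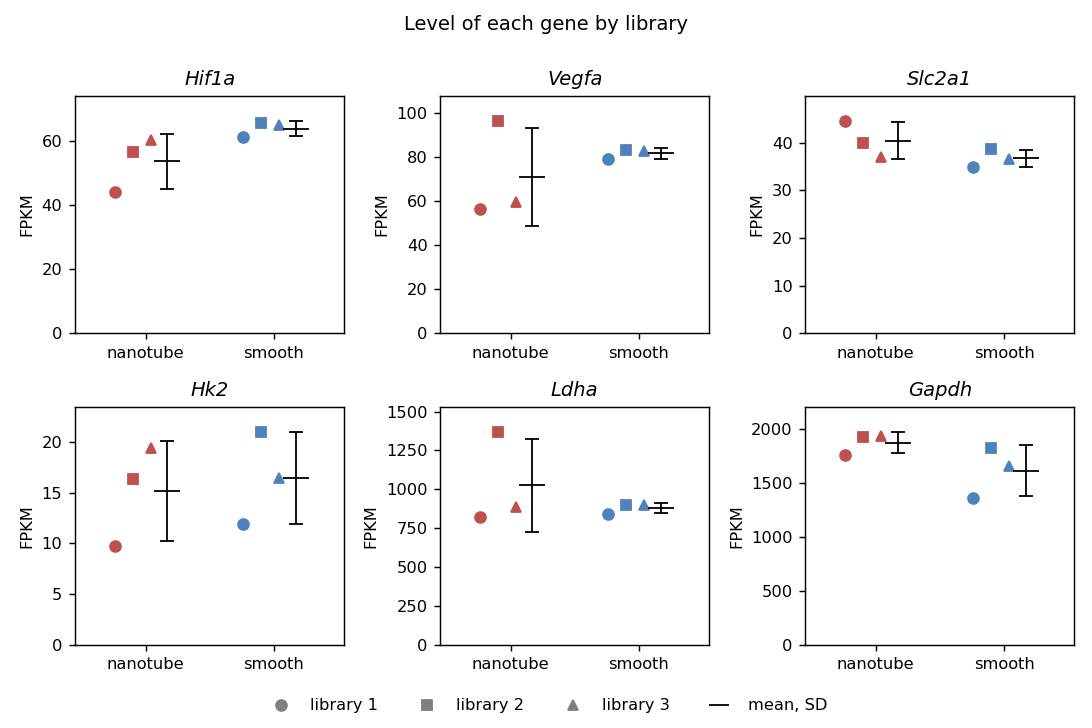
Level of each gene in FPKM (vertical axis, from 0) on nanotubes and on smooth surface; coloured symbols are libraries 1, 2 and 3, and black marks are the mean and SD of 3 libraries. Hif1a is the gene whose 3 nanotube points (44.1 to 60.4) all lie below its 3 smooth points (61.3 to 65.6), and Vegfa and Ldha each have 1 high point, nanotube library 2.

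None of the 6 genes passed an adjusted p of 0.05 for nanotubes against smooth (limma on log2(FPKM + 1) over 11865 genes, Benjamini-Hochberg adjustment). The same fit called 0 of the 11865 genes, 0% of those tested. At an unadjusted p under 0.05 there were 0 of the 6 members, against 6.1% of all genes, and the voom fit on recovered reads called 0 genes and had 721 at an unadjusted p under 0.05. Mean levels were higher on nanotubes for 3 members (Slc2a1, Ldha, Gapdh) and lower for 3 (Hif1a, Vegfa, Hk2). Among all tested genes, 40.5% had a higher mean on nanotubes as deposited, 51.5% after median-of-ratios scaling and 47.7% after rescaling to 1 column sum, while the members stayed at 3 in each case. As deposited, the median log2 fold change of the members was 0.0049, against -0.044 for all genes, and the median of its size was 0.20, against 0.14. After median-of-ratios scaling the median of all genes was 0.0066. The members then stood at -0.20 for Hif1a, -0.19 for Vegfa, 0.19 for Slc2a1, -0.071 for Hk2, 0.24 for Ldha and 0.28 for Gapdh. The 95% interval of the log2 fold change lay between -1 and 1, a 2-fold change either way, for all 6 members. These intervals take each library as labelled and as independent.

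Hif1a (ENSRNOG00000008292), the regulator, was the member whose groups did not overlap. It measured 44.1, 56.8 and 60.4 FPKM in nanotube libraries 1, 2 and 3, and 61.3, 65.6 and 65.0 FPKM in smooth libraries 1, 2 and 3. The 3 nanotube values lay below the 3 smooth values, though nanotube library 3 and smooth library 1 were only 1.01-fold apart (95% counting interval 0.971 to 1.06, from 4081 and 3982 reads), a gap that counting error covers. Of all tested genes, 7.49% had nanotube values wholly below the smooth values. The means were 53.8 ± 8.57 and 64.0 ± 2.35 FPKM (SD, n = 3 libraries each), and the log2 fold change was -0.26 (95% interval -0.59 to 0.067). Its limma adjusted p was 0.753. Nanotube library 1 carried much of the difference. Without it the log2 fold change was -0.13 (limma adjusted p 0.9996), and without nanotube library 3 it was -0.35 (limma adjusted p 0.255). In the fit without nanotube library 3 the unadjusted limma p of Hif1a was 0.0436, and 2200 of the 11865 tested genes were under 0.05. After median-of-ratios scaling the groups were also apart, at 47.5 to 58.5 against 61.7 to 63.0, as were 7.49% of tested genes in that direction, and likewise after rescaling to 1 column sum, where 6.67% were.

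Vegfa (ENSRNOG00000019598) encodes the secreted growth factor that draws in blood vessels and is a classical HIF target. Its levels were 56.2, 96.2 and 59.6 FPKM in nanotube libraries 1, 2 and 3, and 78.9, 83.3 and 82.6 FPKM in smooth libraries 1, 2 and 3. Nanotube library 2 was the highest of the 6 and the other nanotube libraries were the lowest, so the smooth values sat inside the nanotube range. The means were 70.7 ± 22.2 and 81.6 ± 2.37 FPKM (SD, n = 3 libraries each), with a log2 fold change of -0.25 (95% interval -0.74 to 0.25) and a limma adjusted p of 0.832. The SD on the log2 scale was 0.42 among nanotube libraries, larger than in 83.0% of tested genes, and 0.042 among smooth libraries, larger than in only 8.68%. Without nanotube library 2 the log2 fold change was -0.49 (95% interval -0.75 to -0.22), at an unadjusted limma p of 0.00456 (limma adjusted p 0.979). In that fit 378 of the 11865 tested genes were at an unadjusted p under 0.05. The difference shrank to -0.11 without nanotube library 1 (limma adjusted p 0.9996) and to -0.15 without nanotube library 3 (limma adjusted p 0.763), so its size rested on which nanotube library was left out. Nanotube library 3, which over all genes resembled smooth library 2, had less Vegfa than that library, at a ratio of 0.715 (95% counting interval 0.684 to 0.746).

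Slc2a1 (ENSRNOG00000007284) encodes GLUT1, the transporter through which most cells take up glucose at rest. It had 44.5, 39.9 and 36.9 FPKM in nanotube libraries 1, 2 and 3, and 34.9, 38.6 and 36.5 FPKM in smooth libraries 1, 2 and 3. Nanotube libraries 1 and 2 were above the smooth libraries, and nanotube library 3 lay among them. Nanotube library 2 was only 1.03-fold above smooth library 2 (95% counting interval 0.966 to 1.105), a gap that counting error covers. The means were 40.4 ± 3.84 and 36.7 ± 1.84 FPKM (SD, n = 3 libraries each). This gave a log2 fold change of 0.13 (95% interval -0.12 to 0.39) at a limma adjusted p of 0.821. With nanotube library 1 left out the log2 fold change was 0.064 (limma adjusted p 0.9996). Slc2a1 had the narrowest range of the members over the 6 libraries, 1.27-fold between its highest and lowest library. Within a surface other members varied less. The SD on the log2 scale was 0.13 for Slc2a1 and 0.077 for Gapdh on nanotubes. On smooth it was 0.070 for Slc2a1, 0.042 for Vegfa, 0.053 for Hif1a and 0.056 for Ldha. Of the 15 pairs of libraries, 9 differed beyond the counting error of their reads, against 12 to 14 pairs for the other members. That count also depends on the number of reads, 1476 to 2034 for Slc2a1, 937 to 1913 for Hk2 and at least 21955 for Ldha and Gapdh.

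Hk2 (ENSRNOG00000006116) encodes hexokinase 2, the inducible enzyme that traps glucose in the cell as glucose 6-phosphate. Its levels were 9.79, 16.4 and 19.5 FPKM in nanotube libraries 1, 2 and 3, and 12.0, 21.0 and 16.4 FPKM in smooth libraries 1, 2 and 3. The groups overlapped almost fully, and library 1 was the lowest on each surface. The means were 15.2 ± 4.94 and 16.5 ± 4.52 FPKM (SD, n = 3 libraries each), with a log2 fold change of -0.12 (95% interval -0.81 to 0.56) and a limma adjusted p of 0.943. Hk2 had the widest spread of the members, 2.15-fold from nanotube library 1 to smooth library 2. Its SD on the log2 scale was above that of 87.1% of tested genes on nanotubes and 89.3% on smooth. The lowest Hk2 levels were found in the libraries with the highest share of reads in the 10 most abundant genes, 13.6% in nanotube library 1 and 11.4% in smooth library 1. The part of that share in the Hk2 levels was not tested. The sign of the difference depended on single libraries, with a log2 fold change of 0.14 without nanotube library 1 and 0.059 without smooth library 2, but -0.20, -0.32 and -0.32 without nanotube library 2, nanotube library 3 and smooth library 1.

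Ldha (ENSRNOG00000013009) encodes the lactate dehydrogenase A subunit, which turns pyruvate into lactate and regenerates NAD+ for glycolysis. It had 819, 1367 and 888 FPKM in nanotube libraries 1, 2 and 3, and 842, 901 and 899.8 FPKM in smooth libraries 1, 2 and 3. Nanotube library 2 stood alone above the other libraries, all of which lay between 819 and 901. It was 1.67-fold above nanotube library 1 (95% counting interval 1.64 to 1.70, from 37809 and 23086 reads), far beyond counting error. The means were 1025 ± 299 and 881 ± 33.7 FPKM (SD, n = 3 libraries each). Their log2 fold change was 0.18 (95% interval -0.32 to 0.68), and its limma adjusted p 0.882. With nanotube library 2 left out it was -0.046 (limma adjusted p 0.993), so the direction rested on that library, and without nanotube library 1 it was 0.32 (limma adjusted p 0.9996).

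Gapdh (ENSRNOG00000018630) encodes the glycolytic enzyme glyceraldehyde 3-phosphate dehydrogenase and is widely used as a reference gene. Its levels were 1758, 1925 and 1932 FPKM in nanotube libraries 1, 2 and 3, and 1357, 1826 and 1656 FPKM in smooth libraries 1, 2 and 3. Smooth library 1 was the lowest, and the groups overlapped only in that nanotube library 1 lay below smooth library 2. The means were 1872 ± 98.2 and 1613 ± 237 FPKM (SD, n = 3 libraries each), with a log2 fold change of 0.22 (95% interval -0.15 to 0.60) and a limma adjusted p of 0.797. Without smooth library 1 the log2 fold change was 0.10 (limma adjusted p 0.818). The overlap depended on the scaling. After median-of-ratios scaling the nanotube values, 1825 to 1985, lay wholly above the smooth values, 1390 to 1716, as did those of 7.24% of all tested genes, and the limma adjusted p was 0.642. After rescaling to 1 column sum the groups were apart as well, as in 7.05% of tested genes. As deposited, 4.72% of genes had nanotube values wholly above the smooth ones. Rodent genomes carry many processed copies of Gapdh, and how reads of near-identical copies were counted is not given in the sources used here.

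**Figure D2:**
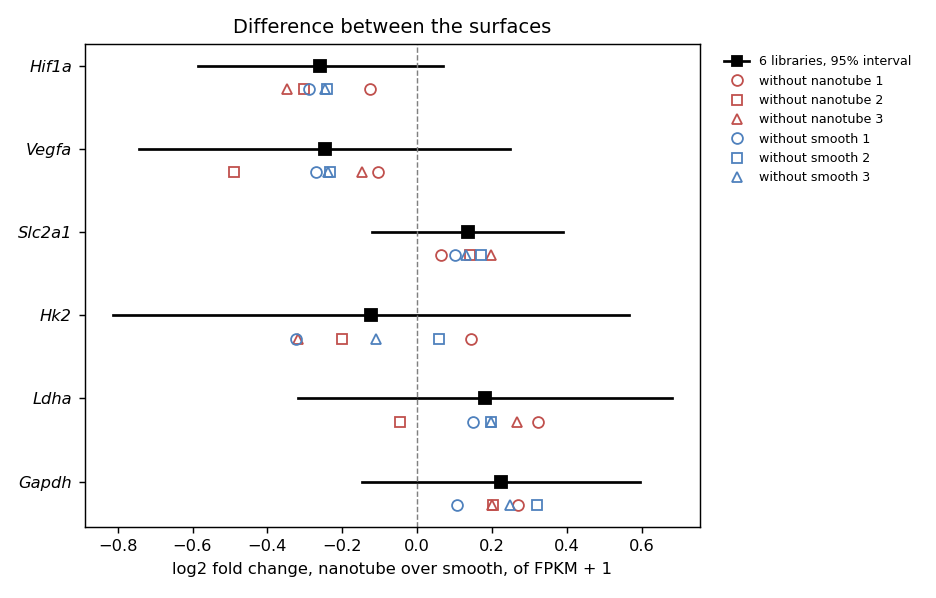
Difference between the surfaces for each gene as the log2 fold change of FPKM + 1, nanotube over smooth (horizontal axis). Black squares and lines are the estimate and 95% interval from 6 libraries, and open symbols are the estimate without 1 library; every interval spans 0, and open symbols fall on both sides of 0 for Hk2 and Ldha.

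The members did not move as 1 block over the libraries. After each gene was centred on its mean of log2(FPKM + 1), nanotube library 1 was low in Hif1a (-0.40), Vegfa (-0.41), Hk2 (-0.60) and Ldha (-0.19), but high in Slc2a1 (0.21) and near the mean in Gapdh (0.023). In nanotube library 2 the centred values of Vegfa and Ldha were 0.36 and 0.54, against 0.15 for Gapdh, 0.089 for Hk2, 0.052 for Slc2a1 and -0.040 for Hif1a. The lactate-forming enzyme and the vessel growth factor were thus high together in a library in which the transporter and the HIF regulator were near their means. The root mean square difference of the centred values, a measure of unlikeness over the 6 libraries, was lowest for Slc2a1 with Gapdh at 0.15 and highest for Slc2a1 with Hk2 at 0.42. For Vegfa with Ldha it was 0.21, and 4.71% of the other tested genes lay nearer to Vegfa than Ldha did, and 10.2% nearer to Ldha than Vegfa did. For Vegfa with Hif1a it was 0.22, with 6.23% of genes nearer to Vegfa but 50.2% nearer to Hif1a. The measure favours genes that vary little, all libraries are shared between genes, and no test was made.

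**Figure D3:**
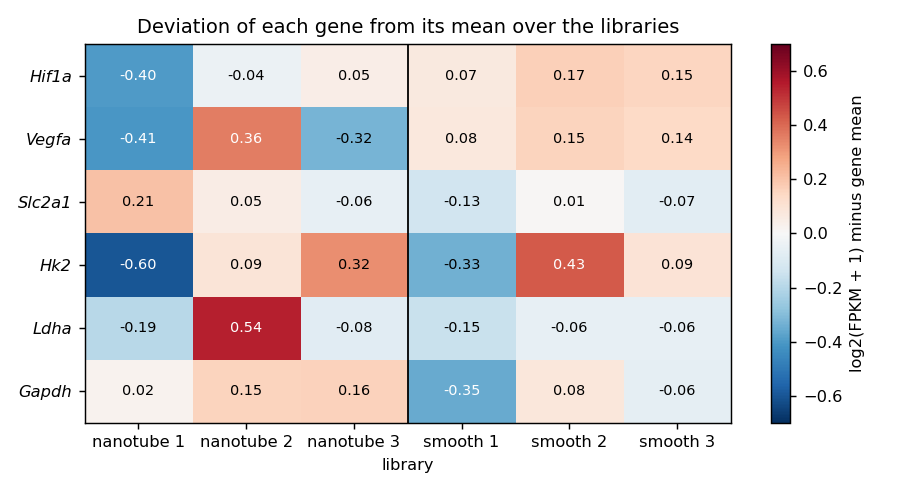
Deviation of each gene from its own mean over the 6 libraries, in log2(FPKM + 1) units (colour and printed value), with libraries in columns and the black line between the surfaces. Nanotube library 1 has the lowest values for Hif1a, Vegfa, Hk2 and Ldha, and nanotube library 2 the highest for Vegfa (0.36) and Ldha (0.54).

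The genes most like the mean centred profile of Slc2a1, Hk2, Ldha and Gapdh, among the 6455 other genes averaging 10 FPKM or more, are known here by identifier alone. ENSRNOG00000016973 lay at a root mean square difference of 0.030 over the 6 libraries, with 33.7, 43.3 and 38.7 FPKM on nanotubes and 32.3, 39.0 and 36.4 on smooth. ENSRNOG00000036663 lay at 0.031, with 19.4, 25.2 and 22.4 FPKM on nanotubes and 18.3, 24.0 and 22.2 on smooth. In each of these genes library 2 was the highest and library 1 the lowest of its surface. The mean profile by which they were picked has this order, so the order follows from the choice. Of the genes averaged into that profile, only Ldha has this order on both surfaces, with a centred value of 0.54 in nanotube library 2. On nanotubes Slc2a1 was highest in library 1 (centred value 0.21), and Hk2 (0.32) and Gapdh (0.16) were highest in library 3.

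Because Gapdh is a common denominator for expression levels, the other members were also set against it within each library. Hif1a stood at 2.51%, 2.95% and 3.13% of the Gapdh FPKM in nanotube libraries 1, 2 and 3, and at 4.52%, 3.60% and 3.93% in smooth libraries 1, 2 and 3. The nanotube ratios were all below the smooth ratios, and the lower Hif1a and the higher mean Gapdh both add to this gap. The means were 2.86% ± 0.319 and 4.01% ± 0.467 (SD, n = 3 libraries each), a log2 difference of -0.49. The exact two-sided permutation p was 0.1, the smallest that 3 against 3 libraries allow, and 0.5 after Benjamini-Hochberg adjustment over the 5 ratios. Each of the other ratios had 2 nanotube libraries below all smooth libraries, but the 5 ratios share the Gapdh values and are not separate observations. The share of all tested genes whose ratio to Gapdh is apart in this way was not worked out, so the separation cannot be judged against it.

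For Vegfa the ratio to Gapdh was 3.20%, 5.00% and 3.08% on nanotubes and 5.81%, 4.56% and 4.99% on smooth. Nanotube libraries 1 and 3 lay below all smooth libraries, and the log2 difference was -0.47 (exact permutation p = 0.3, adjusted 0.5, n = 3 libraries each). Hk2 stood at 0.557%, 0.852% and 1.01% of Gapdh on nanotubes and 0.881%, 1.15% and 0.992% on smooth. Its groups overlapped, with a log2 difference of -0.36 (exact permutation p = 0.3, adjusted 0.5, n = 3 libraries each), which was -0.11 without nanotube library 1 and -0.54 without nanotube library 3.

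Slc2a1 and Ldha, whose mean FPKM was higher on nanotubes, had a slightly lower mean log2 ratio to Gapdh there. The log2 difference was -0.086 for Slc2a1 (exact permutation p = 0.5, adjusted 0.625) and -0.043 for Ldha (exact permutation p = 0.8, adjusted 0.8). Ldha stood at 46.6%, 71.0% and 46.0% of Gapdh on nanotubes and 62.0%, 49.3% and 54.3% on smooth, so that the nanotube libraries were both the highest and the lowest. With the mean of the other members as the denominator in place of Gapdh, the difference was 0.19 for Slc2a1 (exact permutation p = 0.7) and 0.24 for Ldha (exact permutation p = 0.2). The direction of these ratios thus depended on the reference. With that denominator the differences of the other members were smaller than against Gapdh. They were -0.30 for Hif1a (exact permutation p = 0.1, the smallest possible), -0.28 for Vegfa (exact permutation p = 0.3) and -0.14 for Hk2 (exact permutation p = 0.8). The p-values with that denominator are unadjusted.

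**Figure D4:**
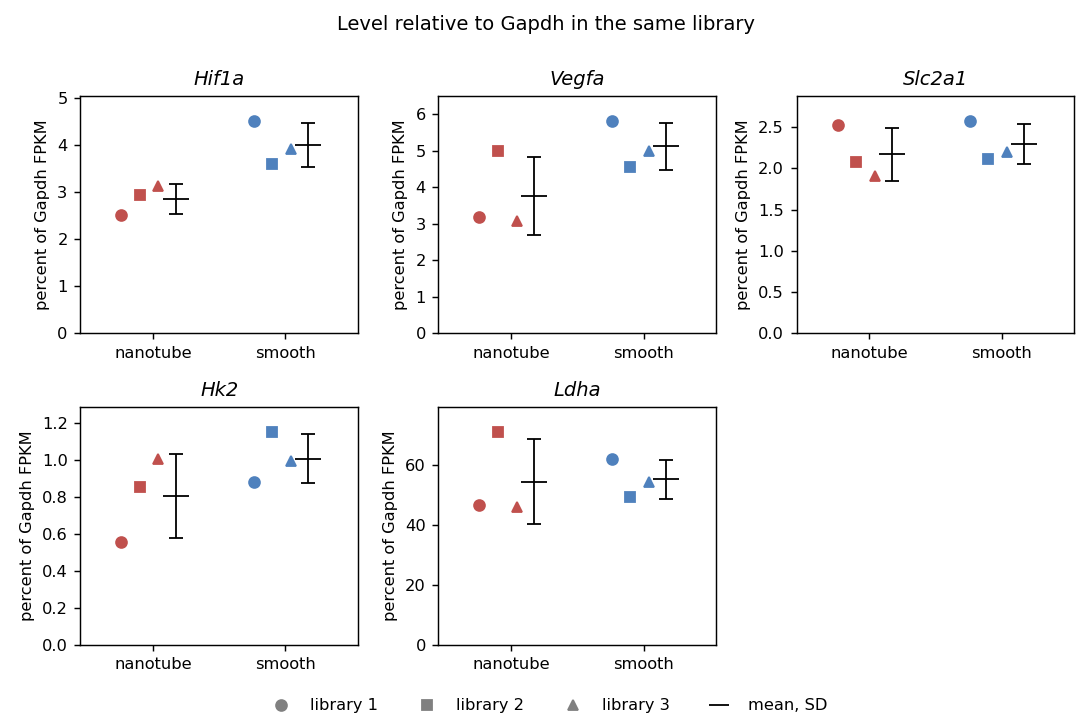
Level of each gene as a percentage of the Gapdh FPKM in the same library (vertical axis, from 0); coloured symbols are libraries 1, 2 and 3 of each surface, and black marks are the mean and SD of 3 libraries. The Hif1a points on nanotubes (2.51% to 3.13%) lie below those on smooth (3.60% to 4.52%), and the other genes overlap. The share of all tested genes apart in this way was not worked out.

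The wider lists of glycolytic enzymes, HIF pathway genes, HIF targets and marker genes of stromal, leukocyte, endothelial and erythroid cells were not tested, because no source used here pairs their symbols with the identifiers of the table.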

How the data were processed

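The authors deposited a single table with FPKM for 19458 genes in 6 libraries (reads relative to model length and library total). Per the submitters' processing notes, Bowtie 1.0.1, HISAT2 2.1.0 and HTSeq were used, without stated roles, and the builds mm10 and GRCm38 are named, which are mouse builds, whereas all identifiers are of the rat. For the rat build, strand setting and filters, nothing is given in the sources used here. Per the labels' protocols, libraries were made with the NEBNext Ultra kit from 3 µg of Trizol-extracted RNA.

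Groups follow the surface in the labels. The titles number libraries 1 and 2 of each surface, and the number 3 comes from the table's columns. Surfaces were compared with limma 3.58.1 in R 4.3.3 (mean-variance trend) on log2(FPKM + 1) of the 11865 genes averaging 1 FPKM or more, adjusted by Benjamini-Hochberg at 0.05. A fold change on the log2(FPKM + 1) scale understates that of low genes. Whole reads were recovered from the FPKM values of all 19458 genes (relative tolerance 1e-12) as multiples of 1 read over model length and library total. They set the exact 95% counting intervals, which cover counting error only, since reads without molecular identifiers are not independent molecules. Of 3 candidate sets of library totals that fit the values, the smallest was used, and the reads and counting intervals rest on that choice. The members had 937 to 37809 reads per library. The scripts were tested on simulated data. The named genes are the 6 members and the 2 genes nearest to the mean centred profile of Slc2a1, Hk2, Ldha and Gapdh. Alternatives were other pseudocounts (0.1, 5), filters (none, 5 FPKM), scalings, no trend, voom, a replicate block and leaving out libraries. The members and lists were chosen with earlier results of these data known. None of the 47357 genes in the RefSeq table used here (GRCr8) carries an identifier of the table, and the 6 member symbols occur in it.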

Additional observations from a re-analysis of the deposited data

How the results depend on the processing

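Across 17 alternatives no member passed an adjusted p of 0.05 (limma, 0.255 to 0.9998). Leaving out 1 library gave 0 to 1 genes called among all genes, the 1 without nanotube library 3, and 0 of the members. Genes at an unadjusted p under 0.05 then numbered 237 at the fewest, with smooth library 3 left out, and 2200 at the most, with nanotube library 3 left out, against 724 with all 6. The log2 fold changes with 1 library left out ranged from -0.35 to -0.13 for Hif1a, -0.49 to -0.11 for Vegfa, 0.064 to 0.20 for Slc2a1, -0.32 to 0.14 for Hk2, -0.046 to 0.32 for Ldha and 0.10 to 0.32 for Gapdh. Pseudocounts, filters, scalings, the trend and voom kept all 6 directions. With 1 library left out, the log2 differences of the ratios to Gapdh ranged from -0.56 to -0.40 for Hif1a, -0.70 to -0.35 for Vegfa, -0.20 to 0.0012 for Slc2a1, -0.54 to -0.11 for Hk2 and -0.25 to 0.065 for Ldha. With the other members as reference and all 6 libraries, that of Hif1a was -0.30, outside its range above. Those of Slc2a1 and Ldha were then 0.19 and 0.24, and those of Vegfa and Hk2 were -0.28 and -0.14. Without either library numbered 3, an alternative chosen after seeing the data, the log2 difference of the Ldha ratio to Gapdh was 0.056. The causes were not tested.

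The replicate numbers were treated as names that pair nothing, since the labels state no factor other than the surface. Deviations of same-numbered libraries from their group means correlated at 0.32, -0.21 and 0.064 for numbers 1, 2 and 3. With 3 libraries per surface these deviations are tied to each other, so the correlations cannot show whether the numbers pair libraries. With the replicate block on the 4 numbered libraries, 0 genes were called and 1356 were at an unadjusted p under 0.05, against 1051 without the block, and Hif1a had a log2 fold change of -0.34 (limma adjusted p 0.466). The block on all 6 libraries, whose last level the titles do not state, called 0 genes and had 801 at an unadjusted p under 0.05. For Hk2, lowest in library 1 on each surface, the standard error of the log2 fold change was 0.15 with that block and 0.29 without it. With the block on the 4 numbered libraries Hk2 had a log2 fold change of -0.30 (limma adjusted p 0.492). Every member had at least 937 reads in each library, and 9 to 14 of the 15 pairs of libraries differed beyond counting error.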
